A study of Mus musculus with 8 samples.

Results

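The genes described here are 32 members of the unfolded protein response and the integrated stress response, taken from a fixed list of symbols, among 18193 genes that a probe set of 1 symbol represents on the array. Of the 32, 31 passed the filter on low signal and were tested with 11217 genes in all. The 32nd, Chac1, stayed below it and is given by level only. Transcripts were measured on Affymetrix mouse arrays in memory CD4 T cells sorted from the spleen 60 days after infection with the LCMV Armstrong strain, a virus that mice clear. The cells were T follicular helper (Tfh) cells, the helpers of B cells in germinal centres, or T helper 1 (Th1) cells, a source of interferon gamma. They were labelled Rictor-null or wild-type (WT). Rictor is a core subunit of the kinase complex mTORC2. The 8 arrays formed 4 groups of 2 (Rictor-null Tfh, WT Tfh, Rictor-null Th1 and WT Th1), with RNA of at least 10 mice combined for each array. All groups shared the infection, the day and the tissue, and none was uninfected. No source used here gives the mice's age, the sort gates, or which part of Rictor was deleted and in which cells. P-values therefore measure the spread between pools, not between mice.

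The endoplasmic reticulum (ER) folds secreted and membrane proteins, and unfolded proteins there switch on 3 sensors. IRE1 (Ern1) splices Xbp1 mRNA, ATF6 is cut to release a transcription factor, and PERK (Eif2ak3) phosphorylates the translation factor eIF2. Phosphorylated eIF2 lowers general translation while Atf4 mRNA is translated better, and other kinases reach the same step from amino acid shortage or viral RNA, which is the integrated stress response. Targets of these arms include ER chaperones, genes that carry misfolded proteins out for degradation, and the factor CHOP (Ddit3). Splicing of Xbp1, cutting of ATF6 and phosphorylation are not read by these arrays, which report transcript levels.

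Many ER chaperone genes carry the ER stress response element (ERSE), to which ATF6 and NF-Y bind, and its letters were searched because they mark members from outside the array data. The RefSeq promoter table of the mouse build GRCm38.p6 holds 250 bases before and 50 after each start site, and 28 of the 32 members were matched in it. Atf6, Hyou1, Manf and Derl1 were the other members. CCAAT followed after 9 bases by CCACG, searched on both strands, was found in 8 of the 28 members (28.6%) and in 37 of 27025 genes of the table (0.137%). The matches of 5 members are printed here, each with the arms of the element in capitals and written on the strand where it reads in that direction.
Hspa5: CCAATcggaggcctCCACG
Calr: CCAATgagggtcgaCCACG
Pdia6: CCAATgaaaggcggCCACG
Dnajc3: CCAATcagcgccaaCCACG
Creld2: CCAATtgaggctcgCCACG
They lie at chr2:34772025-34772043 (Hspa5, plus strand, bases -65 to -47 from its start), chr8:84847075-84847093 (Calr), chr12:17266491-17266509 (Pdia6), chr14:118937827-118937845 (Dnajc3) and chr15:88819520-88819538 (Creld2). The Calr and Creld2 matches read on the strand opposite to the gene. Hsp90b1, with 2 matches, Canx and Syvn1 were the other members with the element.

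A related element, ERSE-II (ATTGG, any base, then CCACG, on both strands), was found in 2 of the 28 members, Herpud1 and Dnajb11 (7.14%), and in 0.0444% of genes of the table. The core of the element bound by ATF4 with C/EBP proteins, searched as TGATGNAA, was found in 4 (Herpud1, Trib3, Asns and Chac1, 14.3%) and in 4.51% of genes. TGACGTGG, the core of the element bound by XBP1, was in none of the 28 windows and in 0.714% of genes. None of these motifs was in the window of Pdia3, the member with the largest genotype difference, whose 150 bases before the start (chr2:121413752-121413901, plus strand) are printed beside those of Dnajc3 (chr14:118937782-118937931, plus strand), with the ERSE arms of Dnajc3 in capitals.
Pdia3: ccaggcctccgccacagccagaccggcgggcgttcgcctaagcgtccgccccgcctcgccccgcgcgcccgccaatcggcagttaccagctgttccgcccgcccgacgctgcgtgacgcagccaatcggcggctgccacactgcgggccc
Dnajc3: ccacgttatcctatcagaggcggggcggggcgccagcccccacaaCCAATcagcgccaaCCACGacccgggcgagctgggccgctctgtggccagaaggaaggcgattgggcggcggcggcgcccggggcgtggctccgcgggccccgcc
A match is a run of letters, not a bound site, and no match says only that these letters are not in this window. The Pdia3 stretch does hold CCAAT followed after 9 bases by CCACA, which differs from the searched ERSE letters only in the last base. Such near matches were not searched for in any gene.

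Values are the deposited signals of 1 probe set per gene, the brightest past the filter, and differences are log2 differences of signal + 32 from limma (lmFit and eBayes over the 8 arrays, Benjamini-Hochberg adjustment over 11217 genes, threshold 0.05). Folds are on the scale of signal + 32 and understate the change of dim genes. Array medians ran from 35.7 to 37.7. On the third principal component, which held 18.3% of the variance, the lowest arrays were replicate 2 of Rictor-null Tfh (-12.4) and replicate 1 of WT Th1 (-6.49). The brightest of 5 Rictor probe sets read 468 to 576 on all arrays and did not differ by genotype (limma adjusted p = 0.888 in Tfh and 0.585 in Th1). Where it lies relative to the deletion is not known, so it does not check the labels. The other Rictor probe sets were not examined. The 6 T cell genes measured (Cd3e, Cd4 and others) summed to between 18280 and 20110. Of 5 Tfh markers, 4 were higher in Tfh than in Th1 cells in each genotype, with Cxcr5 at 179 to 297 in Tfh and 46.8 to 55.7 in Th1 arrays. All 5 were also higher in Rictor-null than in WT Tfh cells (0.36 to 0.80, among them Il21 and Pdcd1) and 3 were higher in Rictor-null Th1 cells, and their part in the genotype results was not tested. The Th1 genes Tbx21 (422 to 465), Ifng (1421 to 1605) and Selplg (2284 to 2737) did not pass in any comparison of 2 groups. Ifng read 1421 to 1540 in Th1 arrays and 1564 to 1605 in Tfh arrays, so it was not higher in Th1 cells. Cxcr6 was lower in Rictor-null Tfh than in Rictor-null Th1 cells (-0.58, limma adjusted p = 0.0111, and -0.23 in WT, adjusted p = 0.194), and Il12rb2 lay below the array median throughout. Of 9 B cell and plasma cell genes, Ms4a1, Cd79a, Jchain and Blnk lay below the array median on every array, Pou2af1 (66.9 to 189) was higher in Tfh than in Th1 cells of both genotypes, and Ighm differed between genotypes in both cell types. Of 7 myeloid genes, Cst3 was higher in Rictor-null than in WT Th1 cells (0.30, limma adjusted p = 0.0464). Itgax (41.0 to 57.7) was higher in Rictor-null Tfh than in Rictor-null Th1 cells (0.28, adjusted p = 0.0107). Of 3 CD8 and NK genes, Cd8b1 (43.3 to 62.5) was higher in Rictor-null than in WT Tfh cells (0.28, adjusted p = 0.0109). The part of these genes in the results was not tested. Fewer cells of a type and less RNA per cell cannot be told apart in pooled samples.

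**Figure D1:**
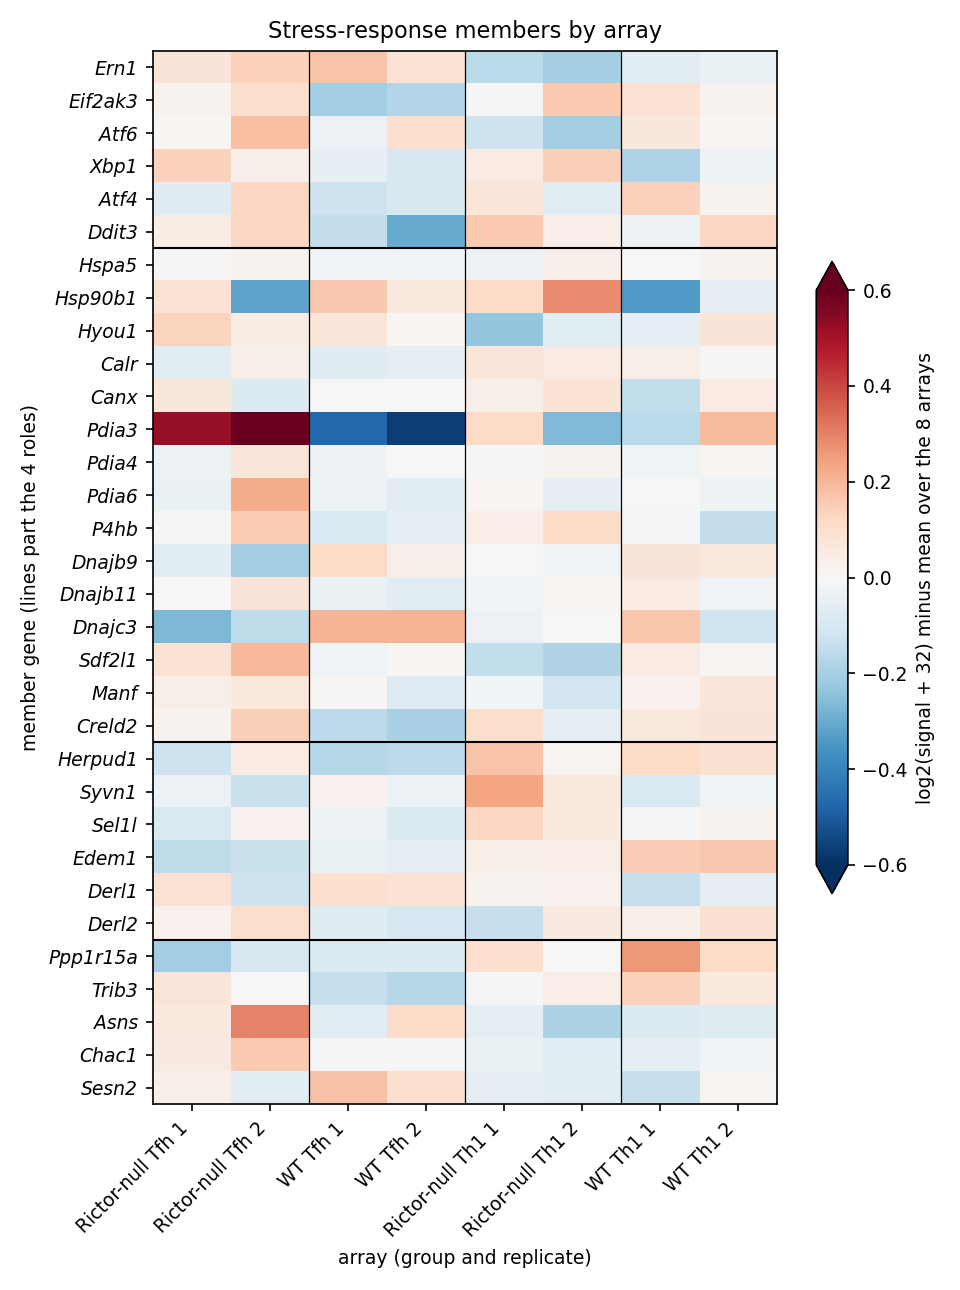
Each row is a member gene and each column an array, and the colour is log2(signal + 32) minus that gene's mean over the 8 arrays, with horizontal lines between the 4 roles. Most rows are pale, and the row of Pdia3 is the one with strong colour, high in both Rictor-null Tfh arrays and low in both WT Tfh arrays.

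The first question was whether loss of Rictor came with another level of these transcripts in memory Tfh cells. Pdia3, which encodes ERp57, a disulfide isomerase that folds glycoproteins with calreticulin and calnexin, was 2.14-fold higher in Rictor-null than in WT Tfh cells. Smaller rises, of 0.25 to 0.31 on the log2 scale, passed the test for Eif2ak3 (PERK), Creld2 (an ER protein of the folding machinery) and Ddit3 (CHOP, a factor induced by ATF4), and Dnajc3, a co-chaperone of BiP that also inhibits PERK, was 1.33-fold lower. In all, 5 of 31 members tested passed (16.1%), 4 higher and 1 lower, against 13.6% of all genes tested (11.3% higher and 2.31% lower). The median difference of the members was 0.07 and that of all genes 0.04, so the members as a list stood close to the rest of the array.

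Pdia3 read 236 and 219 for WT Tfh, 502 and 542 for Rictor-null Tfh, 299.9 and 391 for WT Th1 and 372 and 278 for Rictor-null Th1. Both Rictor-null Tfh arrays lay above all 6 others, both WT Tfh arrays lay below them, and the Th1 genotypes overlapped. The difference in Tfh cells was 1.09 ± 0.128 (SE, n = 2 arrays per group, limma adjusted p = 0.000314). It passed the test under each of the 20 alternatives of scaling, filter, summary and arrays, with values from 0.52 to 1.15, the lowest where the probe sets of a gene were averaged. A second Pdia3 probe set, near the array median at 24.4 to 42.6, differed by -0.05 in Tfh cells.

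Ddit3 read 258 and 227 for WT Tfh, 297 and 316 for Rictor-null Tfh, 279.6 and 316 for WT Th1 and 324 and 297 for Rictor-null Th1. Both WT Tfh arrays were the lowest of the 8, and the Rictor-null Tfh arrays lay within the range of the Th1 arrays. The difference in Tfh cells was 0.31 ± 0.0781 (SE, limma adjusted p = 0.0278). The other Ddit3 probe set gave 0.34 (adjusted p = 0.0103 over probe sets), but there the Rictor-null Tfh arrays, at 244 and 249, were the highest and WT Tfh, at 189 and 185, lay above WT Th1, at 156 and 176. The 2 probe sets thus gave the same genotype difference in Tfh cells and a different place for the Th1 arrays.

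Eif2ak3 read 295 and 302 for WT Tfh, 351 and 373 for Rictor-null Tfh, 368 and 350.5 for WT Th1 and 342 and 388 for Rictor-null Th1. As for Ddit3, both WT Tfh arrays were the lowest and the other 6 overlapped (0.25 ± 0.0679 in Tfh, SE, limma adjusted p = 0.0346). Creld2 read 199 and 193 for WT Tfh, 229 and 252 for Rictor-null Tfh, 237 and 239 for WT Th1 and 245 and 215 for Rictor-null Th1, again with the WT Tfh arrays lowest (0.26 ± 0.0694, SE, limma adjusted p = 0.0350). These 3 smaller rises depended on scaling and on single arrays. Eif2ak3, Ddit3 and Creld2 did not pass with quantile normalization, where their adjusted p was 0.133, 0.0684 and 0.113, nor without Rictor-null Tfh replicate 2 (0.150, 0.126 and 0.173), without WT Tfh replicate 1 (0.195, 0.0533 and 0.143) or without WT Tfh replicate 2 (0.156, 0.239 and 0.207).

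Dnajc3 read 1648 and 1649 for WT Tfh, 1178 and 1283 for Rictor-null Tfh, 1605 and 1314 for WT Th1 and 1393 and 1431 for Rictor-null Th1. The Rictor-null Tfh arrays were the lowest and the WT Tfh arrays the highest (-0.41 ± 0.0852, SE, limma adjusted p = 0.0105). The call was lost without WT Tfh replicate 1 (adjusted p = 0.0794) or replicate 2 (0.0787) and when the probe sets were averaged (-0.14, adjusted p = 0.0800). The 3 other Dnajc3 probe sets past the filter gave 0.02, 0.02 and -0.19 in Tfh cells. One of them passed in Th1 cells, at 224 and 240 in Rictor-null and 286 and 292 in WT arrays (-0.28, adjusted p = 0.0352 over probe sets), where the probe set used gave -0.04.

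The direction of the calls also depended on scaling. On the signals as deposited, 83.0% of all genes called in Tfh cells were higher in Rictor-null cells, against 63.1% with quantile normalization and 47.5% with each array scaled to its 75th percentile, although the median of all genes moved by less than 0.1 log2. Of the members, 1 was higher (Pdia3) and 2 were lower (Dnajb9 and Dnajc3) under both of these scalings. Dnajb9, another BiP co-chaperone, read 1473 and 1331 in Rictor-null Tfh and 1680 and 1580 in WT Tfh (-0.21 ± 0.0641, SE, limma adjusted p = 0.0507 as deposited). Fewer members passed without Rictor-null Tfh replicate 2 or without either WT Tfh array, and more passed without Rictor-null Tfh replicate 1. These fits leave 1 array in a group and have no share of all genes beside them, so they are not read as results about the members.

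The master chaperone, the other sensors and the transcription factors Xbp1 and Atf4 did not pass in Tfh cells by the probe set used for each gene. Hspa5 (BiP), which holds the 3 sensors inactive and is a standard readout of ER stress, read 7278 and 7250 for WT Tfh, 7427 and 7509 for Rictor-null Tfh, 7381 and 7503 for WT Th1 and 7219 and 7560 for Rictor-null Th1. Its difference in Tfh cells was 0.04, with a 95% interval of -0.08 to 0.16, while a less bright Hspa5 probe set, described with the probe sets, was lower in Rictor-null Tfh cells. Xbp1 (0.16 ± 0.0699, SE, limma adjusted p = 0.162), Atf4 (0.13 ± 0.0782, adjusted p = 0.273), Atf6 (0.07 ± 0.0735, adjusted p = 0.578) and Ern1 (-0.02 ± 0.058, adjusted p = 0.845) did not pass the test. The Xbp1 probe set read 1260 and 1222 for WT Tfh, 1440 and 1335 for Rictor-null Tfh, 1146 and 1279 for WT Th1 and 1355 and 1444 for Rictor-null Th1. The Rictor-null arrays lay above the WT arrays of the same cell type in both cases, and the probe set does not separate spliced from unspliced Xbp1.

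**Figure D2:**
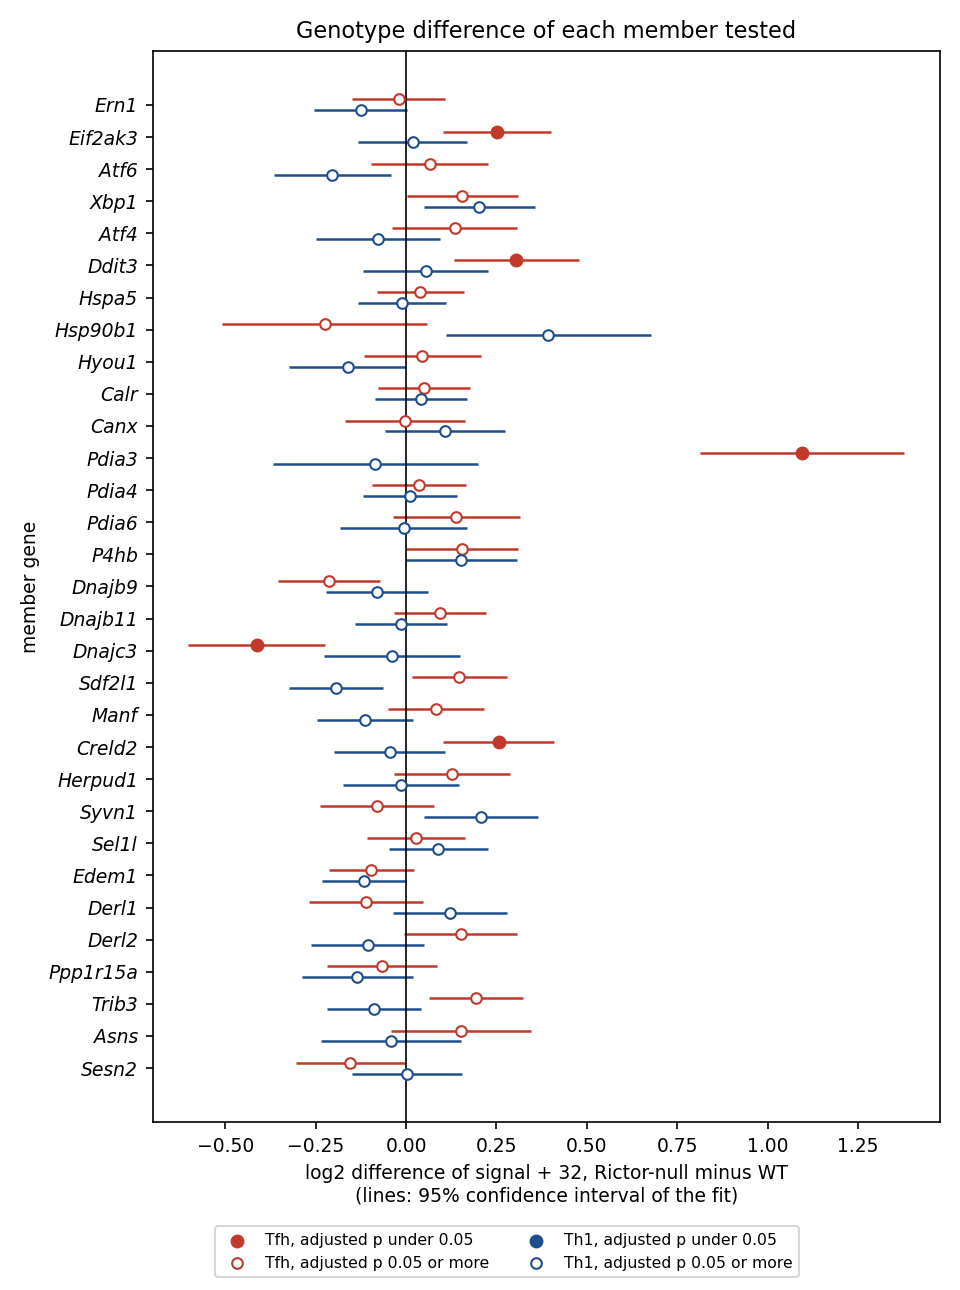
Each row is a member tested, points are the log2 difference of signal + 32, Rictor-null minus WT, in Tfh (red) and Th1 (blue), lines are 95% intervals and filled points passed the test. The red point of Pdia3 at 1.09 stands apart from the other members, the 5 filled points are all in Tfh cells, and the intervals of Hspa5 span 0 in both cell types.

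In Th1 cells the same comparison gave no member past the threshold. None of 31 passed with limma, against 10.5% of all genes tested (7.55% higher and 2.97% lower), and 5 had an unadjusted p under 0.05. The median difference was -0.01 for the members and 0 for all genes. Array weights gave 2 calls, and trended and robust moderation of the variance gave 0. Pdia3 differed by -0.08 ± 0.128 (SE, limma adjusted p = 0.732), Hspa5 by -0.01 with a 95% interval of -0.13 to 0.11, Ddit3 by 0.06, Eif2ak3 by 0.02 and Atf4 by -0.08. Larger values that did not pass were those of Hsp90b1 (0.39, adjusted p = 0.0782), Syvn1 (0.21, adjusted p = 0.0933), Xbp1 (0.20, adjusted p = 0.0953), Atf6 (-0.20, adjusted p = 0.110) and Sdf2l1 (-0.19, adjusted p = 0.0646). With quantile normalization Sdf2l1, a partner of ER co-chaperones, was called lower, and with 75th percentile scaling Sdf2l1 and Atf6 were. Some members passed here without either Rictor-null Tfh array or without WT Th1 replicate 2, in fits that leave 1 array in a group. The share of all genes in these fits is not given.

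A difference that passes in one cell type and misses in another need not differ between them, and the interaction of genotype and cell type was tested for each gene. Pdia3 was the 1 member of 31 to pass, with an interaction of 1.18 ± 0.181 (SE, limma adjusted p = 0.0136), against 1.21% of all genes tested (0.82% with a positive interaction). That call was lost without WT Tfh replicate 1 (adjusted p = 0.0606), WT Tfh replicate 2 (0.0735) or Rictor-null Th1 replicate 2 (0.0535), and the value lay between 0.99 and 1.23 in these fits. The interaction was 0.25 for Ddit3 (adjusted p = 0.251), 0.23 for Eif2ak3 (0.227), 0.30 for Creld2 (0.155) and -0.37 for Dnajc3 (0.154), so for these 4 no difference between the cell types was shown. Sdf2l1 had 0.34 (adjusted p = 0.0880). More members passed this test without Rictor-null Tfh replicate 1, in a fit that leaves 1 array in that group.

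Averaged over both cell types, 5 of 31 members passed (limma), against 17.1% of all genes tested (13.1% higher and 3.93% lower). Pdia3 (0.51, adjusted p = 0.00308), Xbp1 (0.18, adjusted p = 0.0302) and Ddit3 (0.18, adjusted p = 0.0472) were higher in Rictor-null cells, and Dnajc3 (-0.23, adjusted p = 0.0256) and Dnajb9 (-0.15, adjusted p = 0.0487) were lower. Xbp1 encodes the factor that drives ER expansion and secretory genes, and another Xbp1 probe set also passed (0.18, adjusted p = 0.0418 over probe sets). With quantile normalization 1 member was higher (Pdia3) and 4 were lower (Ern1, Dnajb9, Dnajc3 and Edem1). Removal of 1 array left between 1 and 6 calls, with 1 left without WT Tfh replicate 2 or Rictor-null Th1 replicate 2, and 2 left without replicate 1 of WT Tfh, of Rictor-null Th1 or of WT Th1. A call of the mean need not hold in both cell types. Pdia3, Ddit3 and Dnajc3 differed by 1.09, 0.31 and -0.41 in Tfh cells and by -0.08, 0.06 and -0.04 in Th1 cells. For Xbp1 and Dnajb9 the arrays of the genotypes did not overlap in either cell type. The same held for P4hb, Edem1 and Ppp1r15a, which did not pass. Of the 11217 genes tested, 4474 were higher and 2212 lower without overlap in Tfh cells, and 3175 and 3105 in Th1 cells.

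**Figure D3:**
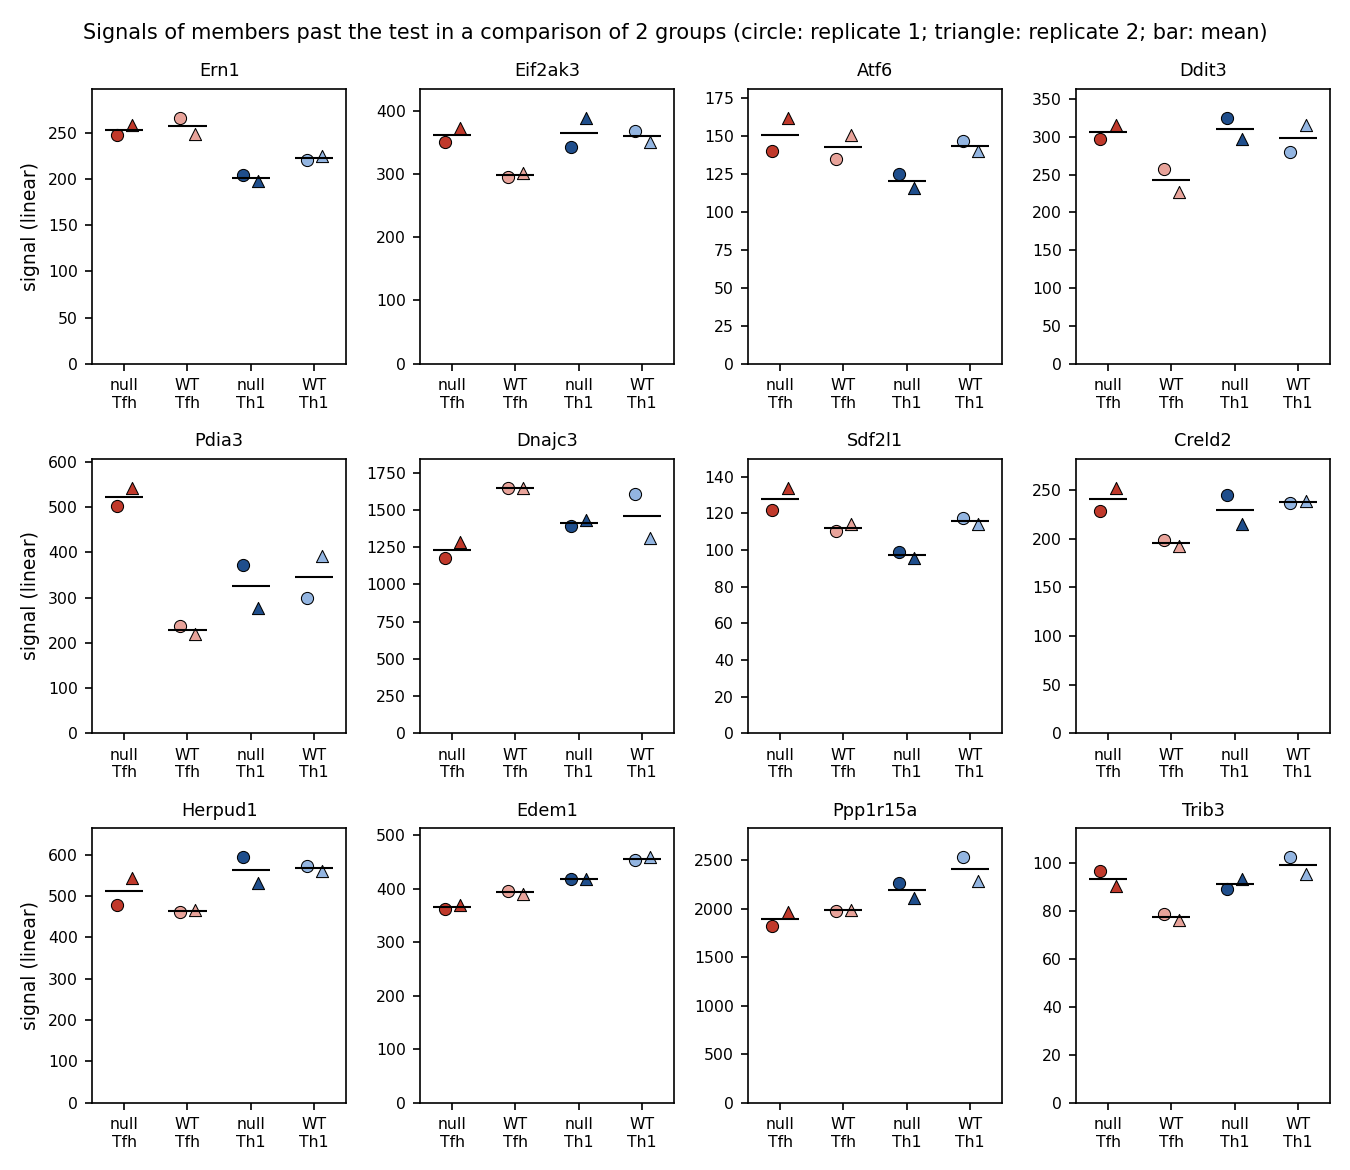
Each panel plots the deposited signal of a member on the 8 arrays by group, with a circle for replicate 1, a triangle for replicate 2 and a bar at the group mean. In the Pdia3 panel both Rictor-null Tfh points lie above all others, and in the panels of Ddit3, Eif2ak3 and Creld2 both WT Tfh points lie at the bottom.

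The cell types were compared within each genotype. In WT mice 8 of 31 members were lower in Tfh than in Th1 cells and none was higher (25.8%), against 14.7% of all genes tested (3.09% higher and 11.6% lower). The 8 were Pdia3, Eif2ak3, Ddit3, Creld2, Herpud1, Edem1, Ppp1r15a and Trib3. This comparison shares the WT Tfh arrays with the genotype comparison in Tfh cells, so the low WT Tfh values of Pdia3, Ddit3, Eif2ak3 and Creld2 enter both. The median difference was -0.03 for the members and -0.06 for all genes.

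Among the targets of the integrated stress response, Trib3, a pseudokinase induced by ATF4 and CHOP, read 78.8 and 76.2 in WT Tfh and 102 and 95.5 in WT Th1 (-0.26 ± 0.0587, SE, limma adjusted p = 0.0196). In the Rictor-null cells it read 96.4 and 90.2 in Tfh and 88.9 and 93.3 in Th1, where the cell types overlapped. The other Trib3 probe set gave 0.08 in WT mice, and the mean of both gave -0.09 (adjusted p = 0.215), so the call rests on 1 probe set. Ppp1r15a (GADD34), which directs the phosphatase that reverses eIF2 phosphorylation, read 1983 and 1989 in WT Tfh and 2531 and 2287 in WT Th1 (-0.27 ± 0.0692, SE, limma adjusted p = 0.0287). Its Rictor-null arrays read 1820 and 1973 in Tfh and 2265 and 2117 in Th1, lower in Tfh without passing (-0.21, adjusted p = 0.0941).

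Of the ER-associated degradation members, Herpud1, which organises the retrotranslocation complex, read 462 and 467 in WT Tfh and 573 and 561 in WT Th1 (-0.27 ± 0.0725, SE, limma adjusted p = 0.0330). Edem1, a lectin that hands misfolded glycoproteins to degradation, read 395 and 390.3 in WT Tfh and 454 and 458 in WT Th1 (-0.20 ± 0.0531, SE, limma adjusted p = 0.0326). In both genes the WT cell types did not overlap, which was common: 17 of 31 members and 5388 of 11217 genes were lower in WT Tfh cells without overlap. Edem1 read 363 and 369 in Rictor-null Tfh and 418 and 419 in Rictor-null Th1, which was again lower in Tfh by a value that missed the threshold (-0.18, adjusted p = 0.0603).

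Pdia3 was lower in Tfh than in Th1 cells of WT mice by -0.53 ± 0.128 (SE, limma adjusted p = 0.0236), and Eif2ak3 (-0.24, adjusted p = 0.0388), Ddit3 (-0.27, adjusted p = 0.0458) and Creld2 (-0.24, adjusted p = 0.0408) were lower by smaller amounts. The second Ddit3 probe set gave 0.14 in the opposite direction, without passing. Ern1 (0.18, adjusted p = 0.0575), Atf4 (-0.19, adjusted p = 0.118), Xbp1 (0.03), Hspa5 (-0.03) and Atf6 (-0.01) did not pass. A less bright Ern1 probe set did, at 139 and 132 in WT Tfh and 98.6 and 111 in WT Th1 (0.30, adjusted p = 0.0274 over probe sets). The split turned with scaling: quantile normalization called 1 member higher in Tfh (Ern1) and 1 lower (Pdia3), and 75th percentile scaling 2 higher (Ern1 and Sesn2) and 1 lower (Pdia3). No call was left without either WT Tfh array, 1 was left without WT Th1 replicate 1 and 2 without WT Th1 replicate 2.

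Among Rictor-null cells 4 of 31 members were higher in Tfh than in Th1 cells and none was lower (12.9%), against 9.72% of all genes tested (3.27% higher and 6.45% lower). Ern1 (IRE1, the sensor that splices Xbp1) read 265 and 249 for WT Tfh, 247 and 259 for Rictor-null Tfh, 220.1 and 225 for WT Th1 and 205 and 198 for Rictor-null Th1. All 4 Tfh arrays lay above all 4 Th1 arrays, and the difference in Rictor-null cells was 0.29 ± 0.058 (SE, limma adjusted p = 0.0111). Of the 2 other Ern1 probe sets past the filter, 1 had the same sign in Rictor-null cells and neither passed there.

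Sdf2l1 read 110.4 and 114 for WT Tfh, 122 and 134 for Rictor-null Tfh, 118 and 114 for WT Th1 and 98.8 and 95.7 for Rictor-null Th1. The Rictor-null Tfh arrays were the highest and the Rictor-null Th1 arrays the lowest, while the WT arrays lay between them (0.30 ± 0.0592, SE, limma adjusted p = 0.00935). Atf6 read 135 and 151 for WT Tfh, 140.2 and 162 for Rictor-null Tfh, 147 and 140.1 for WT Th1 and 125 and 116 for Rictor-null Th1. Its difference in Rictor-null cells was 0.26 ± 0.0735 (SE, limma adjusted p = 0.0489), and both other Atf6 probe sets had the same sign without passing.

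Pdia3 was higher in Tfh than in Th1 cells here (0.65 ± 0.128, SE, limma adjusted p = 0.0100), the opposite of its direction in WT mice. Eif2ak3 (-0.01), Ddit3 (-0.02), Hspa5 (0.02), Xbp1 (-0.01) and Atf4 (0.02) did not pass by the probe set used for each gene. The second Ddit3 probe set, at 244 and 249 in Rictor-null Tfh and 179 and 172 in Rictor-null Th1, was higher in Tfh cells (0.42, adjusted p = 0.00407 over probe sets), and the second Atf4 probe set gave -0.51 without passing. Quantile normalization kept these 4 and added Hyou1 and Asns. Fewer members passed without Rictor-null Th1 replicate 1 or replicate 2 and more without Rictor-null Tfh replicate 1, in fits that leave 1 array in a group. Atf6 was lost without any 1 array other than Rictor-null Tfh replicate 1, with adjusted p from 0.0610 to 0.231, and Pdia3 without Rictor-null Th1 replicate 2 (0.0854).

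**Figure D4:**
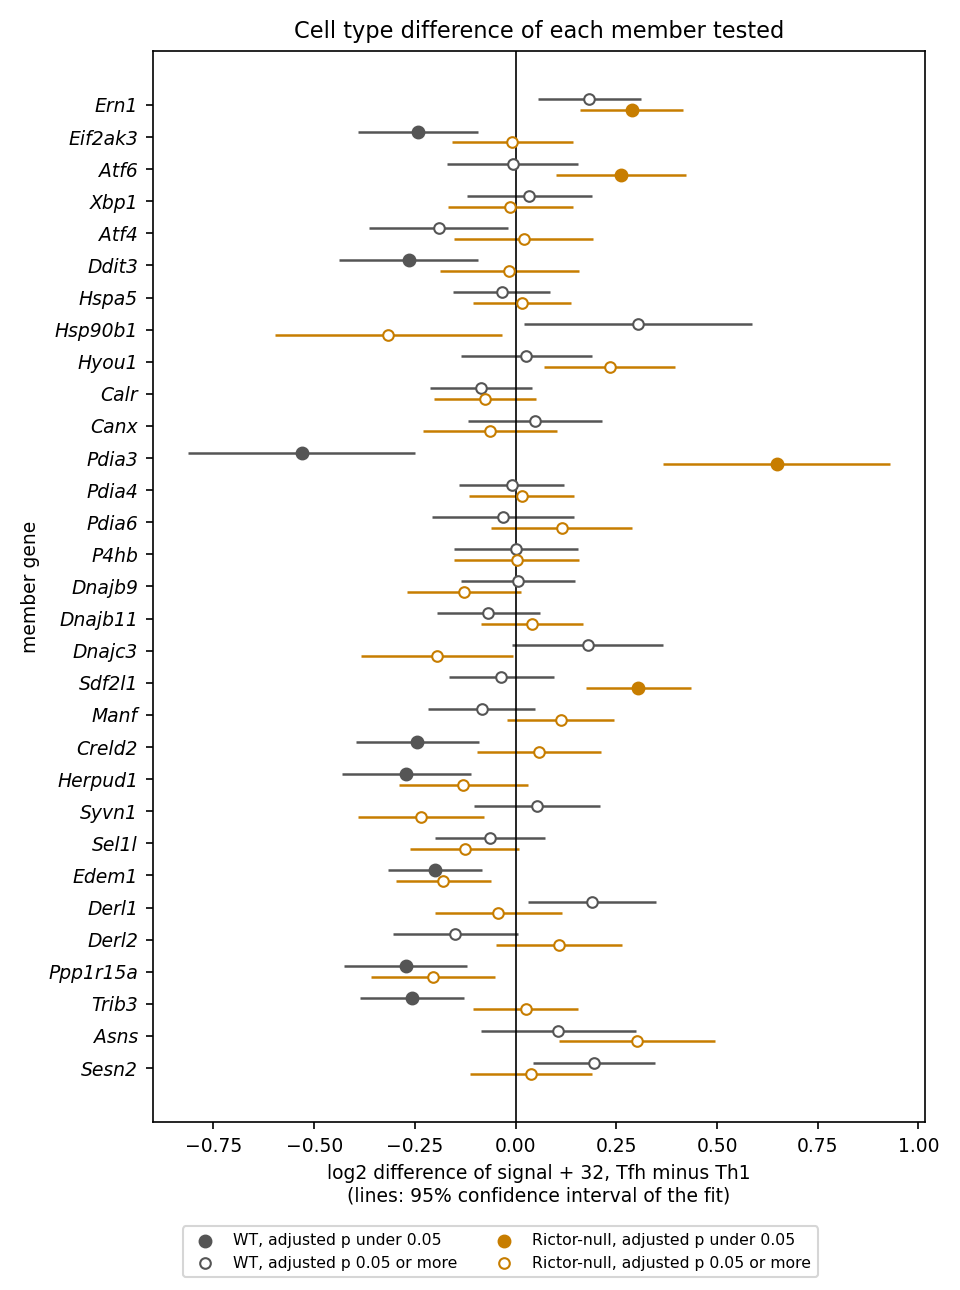
Each row is a member tested, points are the log2 difference of signal + 32, Tfh minus Th1, in WT (grey) and Rictor-null cells (orange), lines are 95% intervals and filled points passed the test. The 8 filled grey points lie to the left of 0 and the 4 filled orange points to the right, and Pdia3 is filled on both sides, at -0.53 and 0.65.

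Probe sets of 1 gene did not always move together, as seen for Pdia3 and Dnajc3 and also for Hsp90b1 (GRP94, the ER form of HSP90), Hspa5 and Atf4. The brighter Hsp90b1 probe set read 1258 and 1169 for WT Tfh, 1194 and 893 for Rictor-null Tfh, 879 and 1084 for WT Th1 and 1217 and 1374 for Rictor-null Th1, lowest on the 2 arrays that lay lowest on the third component. The other read 795 and 983 for WT Tfh, 1339 and 1244 for Rictor-null Tfh, 812 and 923 for WT Th1 and 703 and 776 for Rictor-null Th1. On it both Rictor-null Tfh arrays lay above all others, as for Pdia3. It was picked for mention after its values were seen, and gave 0.53 between genotypes in Tfh cells (limma adjusted p = 0.0137 over probe sets), 0.78 between Rictor-null Tfh and Th1 cells (adjusted p = 0.00211) and an interaction of 0.75 (adjusted p = 0.0456), where the brighter one gave -0.23 (adjusted p = 0.262 over genes), -0.32 and -0.62 (adjusted p = 0.131).

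For Hspa5, the brightest probe set gave 0.04 in Tfh cells, and the others gave -0.23 (limma adjusted p = 0.287 over probe sets) and -0.37 (adjusted p = 0.0281). The one that passed read 1077 and 1009 for WT Tfh, 878 and 734 for Rictor-null Tfh, 904 and 835 for WT Th1 and 791 and 821 for Rictor-null Th1. Both of its Rictor-null Tfh arrays lay below both WT Tfh arrays. It also passed for the mean genotype difference (-0.23, limma adjusted p = 0.0299 over probe sets). The one that did not pass in Tfh cells read 2801 and 2630 for WT Tfh, 2729 and 1951 for Rictor-null Tfh, 2242 and 2592 for WT Th1 and 2768 and 2799 for Rictor-null Th1, lowest on the same pair of arrays. A second Atf4 probe set read 1936 and 1672 for WT Tfh, 1734 and 773 for Rictor-null Tfh, 1138 and 1603 for WT Th1 and 1564 and 1778 for Rictor-null Th1, again lowest on that pair, while the set used for Atf4 read 2116 to 2546 throughout. The part of these arrays in the results was not tested beyond leaving them out. Leaving out both arrays, an alternative chosen after seeing the data, left 1 array of Rictor-null Tfh and 1 of WT Th1. The median genotype difference of the members was then 0.035 in Tfh cells, beside 0.023 for all genes. In Th1 cells it was -0.022, beside 0.006 for all genes.

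**Figure D5:**
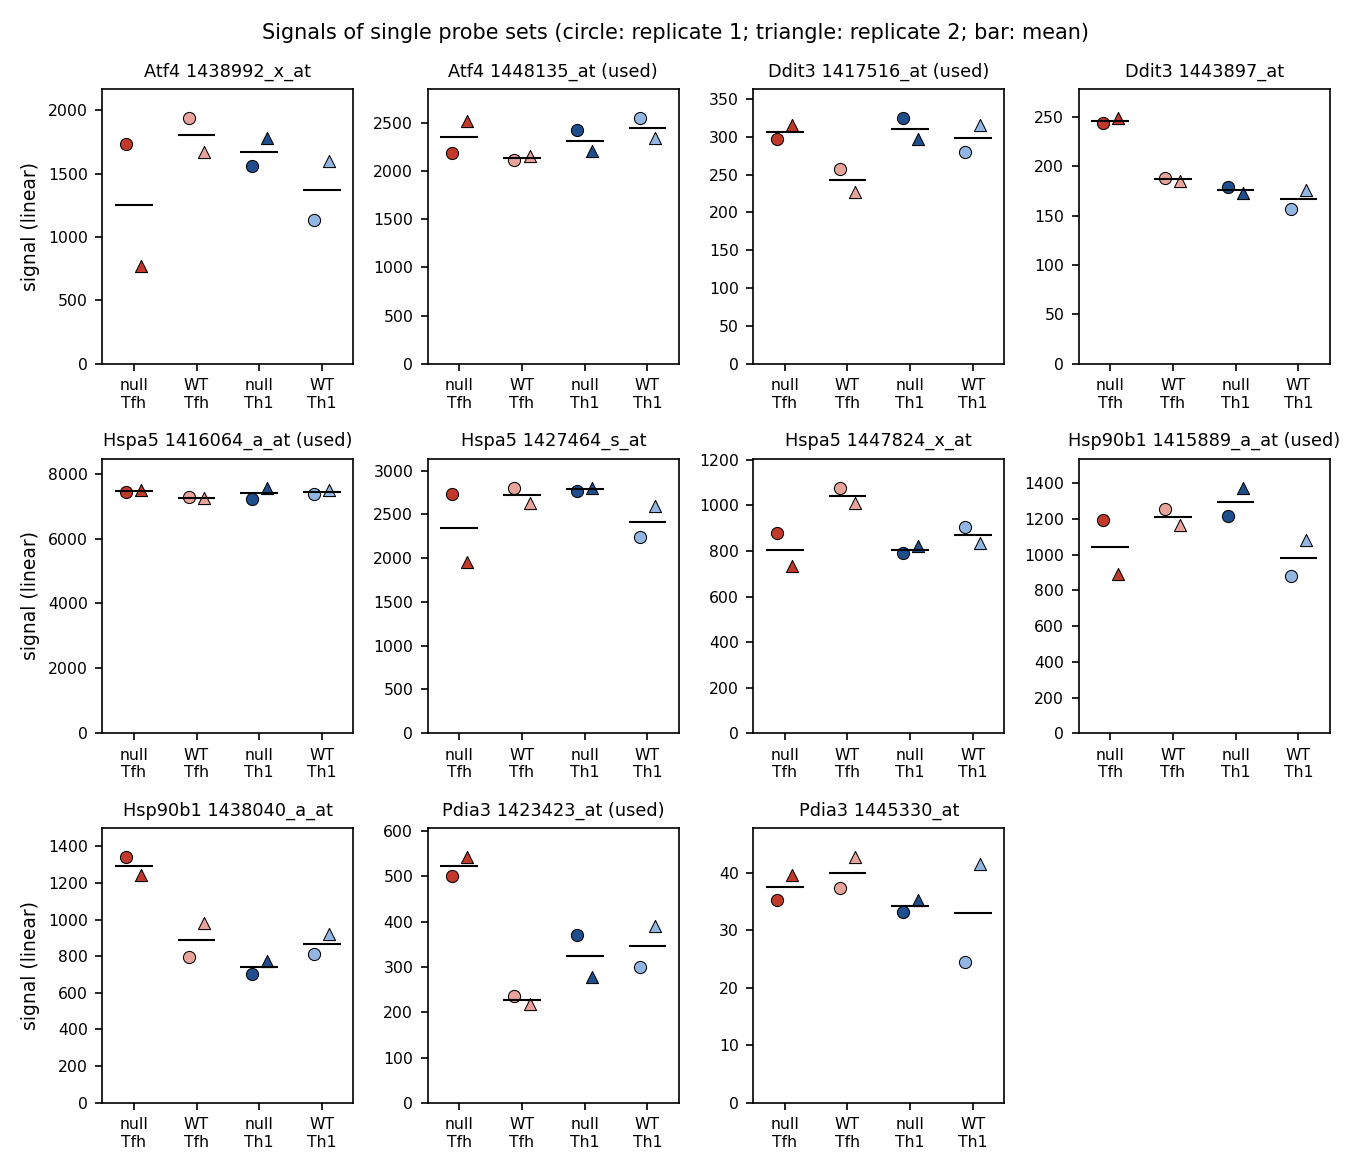
Each panel plots the deposited signal of 1 probe set of Atf4, Ddit3, Hspa5, Hsp90b1 or Pdia3 on the 8 arrays by group, with a circle for replicate 1, a triangle for replicate 2 and a bar at the group mean. The panels of Pdia3 and of Hsp90b1 differ between probe sets, and the less bright Atf4 probe set reads 773 on Rictor-null Tfh replicate 2 while the brighter one reads 2515 there.

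The members not yet described are given by their range over the 8 arrays. Of the chaperones and folding enzymes, calreticulin (Calr) read 2665 to 2952, calnexin (Canx) 936 to 1102, the isomerases Pdia4, Pdia6 and P4hb 136 to 149, 325 to 404 and 810.4 to 1001, the BiP exchange factor Hyou1 470.1 to 614, the co-chaperone Dnajb11 519.5 to 577 and the secreted factor Manf 773 to 879. Of the degradation genes, the ligase Syvn1 (HRD1) read 268 to 355, its partner Sel1l 272 to 321, and the channel proteins Derl1 and Derl2 1947 to 2298 and 259.6 to 313. Asns, which makes asparagine and is an ATF4 target, read 74.0 to 117, and Sesn2, which restrains mTORC1, read 69.5 to 94.1. The highest array of Asns was 1.58 times the lowest, the widest ratio of any member after Pdia3. Chac1, a glutathione-degrading ATF4 target, stayed at 22.9 to 32.2, below the median of each array. The tested genes among these passed in none of the 6 comparisons with limma by the probe set used for each gene. A less bright Canx probe set passed between the Rictor-null cell types (-0.28, limma adjusted p = 0.0422 over probe sets). It read 118 and 108 in Rictor-null Tfh and 152.5 and 136 in Rictor-null Th1.

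By role, the 6 sensors and factors had a median genotype difference of 0.15 in Tfh cells and -0.03 in Th1 cells, the 15 chaperones and folding enzymes 0.05 and -0.01, the 6 degradation genes -0.03 and 0.04, and the 4 tested stress targets 0.04 and -0.07. The 8 members with the ERSE letters had medians of 0.02 in both cell types, with Creld2 higher and Dnajc3 lower in Tfh cells and none called in Th1 cells. In Tfh cells the arrays of the genotypes did not overlap for 14 members that were higher and 7 that were lower in Rictor-null cells, where 39.9% and 19.7% of all genes did so. An exact permutation test of 2 against 2 arrays cannot go below a two-sided p of 0.333, so such separation by itself is no test.

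Around the members, 105 further pathway genes were listed and 101 were on the array, and their calls in Tfh cells are read against the 11.3% of all genes that were higher and the 2.31% that were lower in Rictor-null cells. Of 27 tested targets of ATF4 and CHOP, 6 were higher and 2 lower, of 21 other sensors and eIF2 regulators 5 were higher, of 15 translocation genes 3 were higher (Ssr1, Ssr2 and Spcs2), of 16 other degradation genes 2 were higher (Ube2j1 and Ube2g2) and of 17 other folding genes 1 was higher (Fkbp2). The medians were 0.10, 0.10, 0.09, 0.07 and 0.13, beside 0.04 for all genes. With quantile normalization the counts were 5 higher and 2 lower, 2 higher, 1 higher, 0, and 1 higher and 1 lower, in the same order. The shares of all genes above are of the deposited signals and do not apply to these counts. The medians were then 0.026, 0.075, 0.026, 0.003 and 0.072, beside -0.01 for all genes. Atf3, a stress-induced repressor downstream of ATF4, read 154 and 149.9 for WT Tfh, 231 and 258 for Rictor-null Tfh, 296 and 271 for WT Th1 and 504 and 521 for Rictor-null Th1. Rictor-null arrays lay above the WT arrays in each cell type, and Th1 arrays above Tfh arrays of the same genotype.

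The Atf3 difference was 0.59 ± 0.0663 in Tfh cells (SE, limma adjusted p = 0.00026) and 0.79 ± 0.0663 among Th1 cells (adjusted p = 2.45e-05), and Atf3 was lower in Tfh than in Th1 cells of WT mice by -0.78 (adjusted p = 6.59e-05). Slc7a1, a transporter of cationic amino acids, gained 0.51 in Tfh cells without Rictor (limma adjusted p = 0.00179) and Cebpb, a partner of ATF4, gained 0.35 (adjusted p = 0.00385). Jdp2, a repressor that dimerises with Jun, had -0.33 in Th1 cells (limma adjusted p = 0.0057). Cebpb was also called higher in Rictor-null Th1 cells, and Jdp2 was also called lower in Rictor-null Tfh cells. Among the sensors, Map3k5 (ASK1, a stress kinase downstream of IRE1) was higher by 0.34 in Tfh cells (adjusted p = 0.00213) and by 0.35 among Th1 cells (adjusted p = 0.00179), and Creb3l2, an ER-bound factor of the secretory pathway, by 0.48 in Tfh cells (adjusted p = 0.0075).

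In Th1 cells, where 7.55% of all genes were higher and 2.97% lower, the same lists gave 4 higher and 2 lower of the ATF4 and CHOP targets, 3 higher and 1 lower of the sensors, 1 higher (Hspa13) and 1 lower (Fkbp2) of the folding genes, and none of the translocation or other degradation genes. Ddit4 (REDD1, an inhibitor of mTORC1) read 86.4 and 86.5 for WT Tfh, 100.2 and 92.3 for Rictor-null Tfh, 159 and 158 for WT Th1 and 99.7 and 102 for Rictor-null Th1. The WT Th1 arrays stood above the other 6, with a difference in Th1 cells of -0.52 ± 0.0565 (SE, limma adjusted p = 0.000161) and an interaction of 0.63 (adjusted p = 0.00442). Fkbp2, an ER prolyl isomerase, read 122 and 125 for WT Tfh, 160.1 and 177 for Rictor-null Tfh, 168 and 168 for WT Th1 and 139.6 and 138 for Rictor-null Th1. It was higher in Rictor-null Tfh cells (0.37, adjusted p = 0.00245) and lower in Rictor-null Th1 cells (-0.23, adjusted p = 0.0326), with an interaction of 0.59 (adjusted p = 0.00811).

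Between the WT cell types, where 11.6% of all genes were lower in Tfh cells and 3.09% higher, 6 of 27 ATF4 and CHOP targets were lower in Tfh cells and 1 was higher (Jdp2, 0.84), 3 of 21 sensors were lower and 1 higher (Eif2ak2, the kinase PKR, 0.37), and 3 folding, 2 translocation and 2 other degradation genes were lower. With quantile normalization the first of these lists had 3 lower and 1 higher, a count to which the shares of all genes above, from the deposited signals, do not apply. Between the Rictor-null cell types, where 6.45% of all genes were lower and 3.27% higher in Tfh cells, the counts, in the same order, were 2 lower and 1 higher, 2 lower and 1 higher, 1 lower and 1 higher, none, and 1 lower. Transcripts that can respond to handling, among other stimuli, also differed between the groups, and what moved them was not tested. Of 9 such genes (Fos, Junb, Dusp1 and others), 4 were higher in Rictor-null Tfh cells, 4 were higher and 1 lower in Rictor-null Th1 cells, 5 were lower in WT Tfh than in WT Th1 cells, and 4 were lower in Rictor-null Tfh than in Rictor-null Th1 cells. Their summed signals were 20600 to 20930 in WT Tfh, 23340 to 23370 in Rictor-null Tfh, 24130 to 24270 in WT Th1 and 26430 to 26760 in Rictor-null Th1, and their part in the results was not tested. The B cell and plasma cell list, from cells that make ER chaperones at high level, summed to 2344 and 2298 for WT Tfh, 2626 and 2908 for Rictor-null Tfh, 2502 and 2374 for WT Th1 and 2044 and 2009 for Rictor-null Th1. Most of that sum was Ighm, at 1725 to 2525, which was higher in Rictor-null Tfh cells (0.28, adjusted p = 0.0235), lower in Rictor-null Th1 cells (-0.32, adjusted p = 0.0129) and higher in Rictor-null Tfh than in Rictor-null Th1 cells (0.45, adjusted p = 0.00227). Pou2af1 was higher in Tfh than in Th1 cells by 0.88 among WT and 0.92 among Rictor-null cells, and no other gene of the list passed in these 4 comparisons. The part of these genes in the results was not tested.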

How the data were processed

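The deposited table held 1 intensity per probe set and array on a linear scale, and its scaling is not stated; the submitters' processing notes name MAS5 and RMA with no role or order. The authors' values were used as deposited. Of 45037 probe sets, 34945 had 1 symbol, 932 several and 9160 none in the platform annotation. With R 4.3.3 and limma 3.58.1, probe sets above their array's median on at least 2 arrays were kept, the one with the highest mean log2 represented its gene, and log2(signal + 32) was fitted with 1 mean per group over the 8 arrays (4 residual degrees of freedom). Probe sets were also fitted singly. The fit was tested on simulated data. The members, lists and named genes (each member called; Hspa5, Xbp1, Atf4, Ddit3, Ern1, Eif2ak3 and Atf6 in any case; up to 3 called genes of each other list per comparison) were chosen with earlier results of these data known, so they are no independent support for the directions found in them. Alternatives changed scaling, filter, pseudocount, summary, weights, moderation, the arrays and a replicate block. Listed names that matched no probe set of 1 symbol were not analysed here. Array number limits the precision.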

Additional observations from a re-analysis of the deposited data

Results flagged for a closer look

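Pdia3 was set aside for a closer look because its genotype difference differed between the cell types by a test of that difference. The interaction was 1.18 on the log2 scale (SE 0.181, limma adjusted p = 0.0136), with both Rictor-null Tfh arrays higher than both WT Tfh arrays and overlapping genotypes in Th1 cells. It rests on 1 of 2 Pdia3 probe sets, the other lying near the array median with an interaction of -0.09.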

How the results depend on the processing

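With 2 pools per group, counts of members moved with most choices. In Tfh cells the 5 genotype calls became 3 with quantile normalization, 3 with 75th percentile scaling, 3 with no filter, 2 with a replicate block and 3 without the 2 arrays lowest on the third component, and ranged from 1 to 12 when single arrays were left out. In Th1 cells the count of 0 became 1 with quantile normalization, 2 with 75th percentile scaling, 1 with the mean of probe sets, 2 with array weights and 1 with only the arrays compared, and ranged from 0 to 3 with single arrays left out. The 8 calls between WT cell types became 2, 3, 3, 4 and 13 with quantile normalization, 75th percentile scaling, no filter, the mean of probe sets and array weights, and 2 with the replicate block, with 0 to 12 when single arrays were left out. The 4 calls between Rictor-null cell types ranged from 1 to 8. The interaction call became 0 with no filter, 0 with the mean of probe sets, 0 with trended and robust moderation and 2 without the 2 arrays, and ranged from 0 to 6. The 5 calls of the mean genotype difference became 2 with no filter, 3 with a pseudocount of 16 and 2 with the replicate block, and ranged from 1 to 6. The causes were not tested. These counts of members are given without the share of all genes in the same fits, so they are not read as results about the members. Leaving out a single array, or the 2 arrays lowest on the third component, left 1 array in each group concerned. Among all genes called, quantile normalization moved the share that were higher from 71.8% to 55.4% in Th1 cells, from 21.0% to 40.3% between WT cell types, from 33.7% to 44.5% between Rictor-null cell types and from 77% to 54% for the mean difference. Of 694 single-gene values, 507 kept their direction and side of the threshold, 163 kept the direction but no longer passed, 3 newly passed and 21 turned sign, none of them past the threshold before or after. With the mean of probe sets, Hspa5 became -0.19 in Tfh and 0.03 in Th1 cells and Atf4 -0.24 and 0.11. With quantile normalization Atf6 became -0.01 in Tfh and Eif2ak3 -0.04 in Th1 cells, and with 75th percentile scaling Hspa5 became -0.03 and Atf6 -0.01 in Tfh and Eif2ak3 -0.02 in Th1 cells. Without the 2 arrays Atf6 became -0.02 in Tfh and Ddit3 -0.03 in Th1 cells. With single arrays left out, values of both signs were found for Ern1 (-0.06 to 0.02) and Atf6 (-0.02 to 0.15) in Tfh cells, and for Hspa5 (-0.04 to 0.02), Ddit3 (-0.03 to 0.14) and Eif2ak3 (-0.07 to 0.1) in Th1 cells. Same-numbered arrays deviated together in 2 of 6 pairs of groups (r above 0.1, range -0.514 to 0.276), so the numbers were not taken to pair samples and the replicate block is given here only. Leaving out the 2 arrays lowest on the third component was chosen after seeing the data. Signals near the array median, such as those of the second Pdia3 probe set and of Chac1, carry little information on either direction.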
